A study of Sus scrofa with 9 samples.

Results

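Interleukin-6 (IL6), its relatives that signal through gp130, and granulocyte colony stimulating factor (CSF3) were followed in 9 porcine hearts. The genes were taken by symbol from a list of 10 names, which held the ligands IL6, IL11, LIF and CSF3, the receptors IL6R, IL6ST, OSMR and LIFR, the transcription factor STAT3 and the inhibitor SOCS3. Of these, 7 were analysed among 25149 genes, each with 1 row of values, and IL11, LIF and SOCS3 were not analysed here.

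IL6 binds its own receptor IL6R, and the pair engages gp130, the signal-transducing chain encoded by IL6ST. OSMR and LIFR are the partner chains of gp130 for oncostatin M and leukemia inhibitory factor. Janus kinases bound to these chains phosphorylate STAT3, which enters the nucleus and switches on target genes, among them inhibitors of the same pathway. CSF3 is not a gp130 ligand: it acts through its own receptor on neutrophils and their precursors, and injured or inflamed tissue often induces it together with IL6. In the heart, cardiomyocytes, fibroblasts, endothelial cells and immune cells can all carry gp130, and STAT3 activity is known for its role in the response to ischemia and reperfusion.

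All hearts came from female American Yorkshire pigs aged 4 to 6 months and were exposed to 15 min of warm ischemia after circulatory death. Group 1 (NRP + HOPE 24 h, pigs 27, 28 and 30) received 60 min of normothermic regional perfusion (NRP), the circulation of warm blood inside the donor, and then 24 h of hypothermic oxygenated perfusion (HOPE) at 8 °C. Group 2 (NRP + SCS 2 h, pigs 24, 25 and 29) received 60 min of NRP and 2 h of static cold storage (SCS) at 4 °C. Group 3 (No NRP + HOPE 2 h, pigs 31, 33 and 34) received 0 min of NRP and 2 h of HOPE at 8 °C. Each heart was then reanimated for 2 h by normothermic machine perfusion (NMP) with donor blood, and RNA was taken from 1 apex biopsy at its end. The storage method, duration and temperature differ together between Groups 1 and 2, NRP and storage differ together between Groups 2 and 3, and NRP and duration differ together between Groups 1 and 3, so that these factors cannot be told apart. A heart sampled without storage or without NMP was not part of the 3 groups.

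Values are TPM (transcripts scaled to a common total), which are also adjusted for gene length and can therefore be compared between genes, although the gene lengths behind them are not given in the sources used here. The depth of each heart is unknown, so a gene listed at 0 may lie below detection or be a failed estimate. MYH11, a smooth muscle myosin that cardiac vessels express, was listed at 0 in all 9 hearts. The 13 mitochondrially encoded protein-coding genes took 38.2% to 55.3% of TPM, lowest in pig 30 and highest in pigs 27 and 31. The labels name the cells as cardiomyocytes, and the 6 cardiomyocyte markers analysed of 10 summed to 22647 to 43212 TPM, but markers of other cells were present too. Endothelial markers (6 of 8) summed to 247 to 607 TPM, fibroblast markers (5 of 7) to 669 to 1150 TPM and macrophage markers (4 of 8) to 61.3 to 216 TPM. Neutrophil markers (5 of 9) summed to only 0.127 to 14.4 TPM, and CSF3R, the CSF3 receptor of neutrophils, was listed at 0 in all 9 hearts.

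Within each heart the order of the 7 genes was largely the same. STAT3 was the highest in 9 of 9 hearts, with 100.9 ± 31.4 TPM (mean ± SD, n = 9). The receptor chains followed, with 61.6 ± 16.2 TPM for OSMR, 55.5 ± 18.5 TPM for IL6ST, 51.9 ± 19.2 TPM for IL6R and 35.2 ± 11.8 TPM for LIFR. OSMR exceeded IL6ST in 7 of 9 hearts and IL6R in 8 of 9, while IL6ST exceeded IL6R in only 5 of 9, so that the order of these 3 neighbors lay within their spread. LIFR lay below OSMR and IL6ST in 9 of 9 hearts and below IL6R in 8 of 9. The ligands lay below every receptor chain of the same heart: CSF3 ranged from 0 to 31.5 TPM and IL6 from 0 to 0.985 TPM. For CSF3 the gap was narrow in pig 28, with 31.5 TPM beside 33.5 TPM of LIFR.

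**Figure D1:**
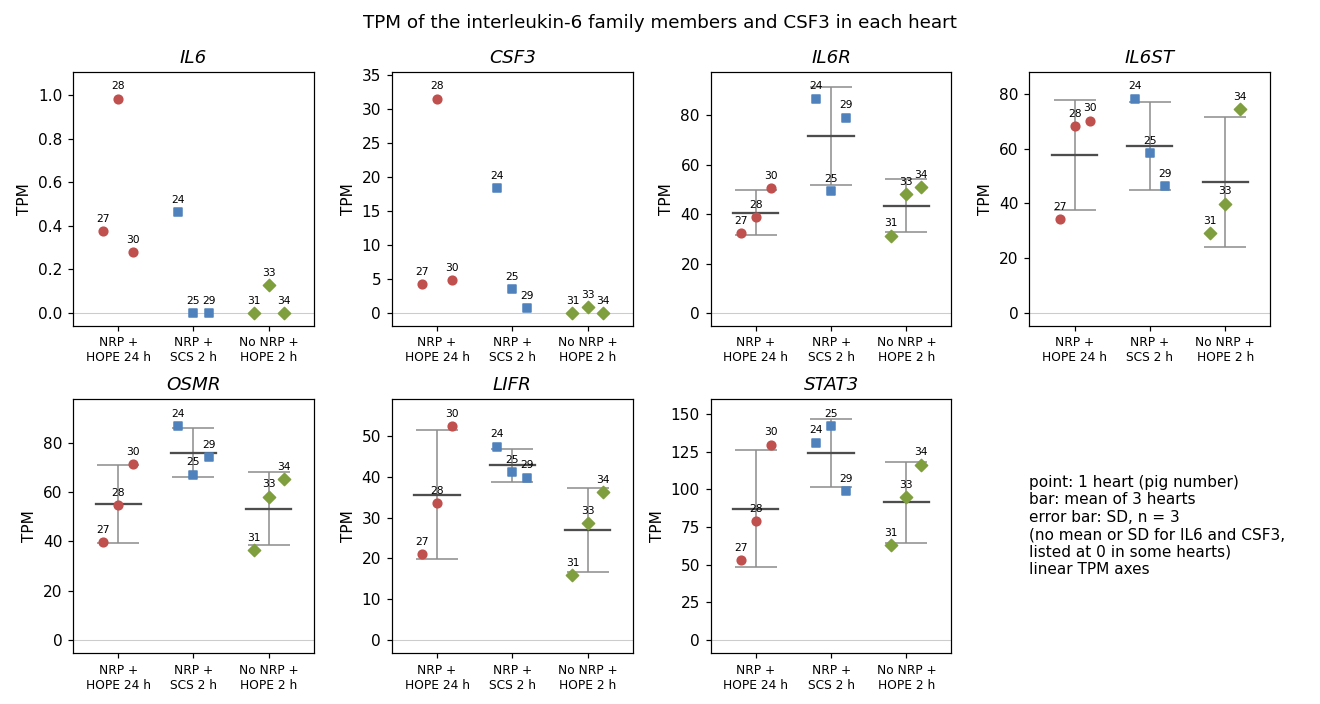
TPM (linear axes) of the 7 genes in each heart, with 1 point per heart labeled by pig number, and the mean and SD of 3 hearts for the 5 genes that were above 0 in every heart. IL6 and CSF3 peak in pigs 28 and 24, whereas the receptors and STAT3 are lowest in pigs 27 and 31 on this plain TPM scale.

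IL6, the ligand that names the family, stayed below 1 TPM in all 9 hearts. It was listed at 0.378 TPM in pig 27, 0.985 in pig 28 and 0.281 in pig 30 of NRP + HOPE 24 h. In NRP + SCS 2 h it was listed at 0.463 TPM in pig 24 and at 0 in pigs 25 and 29. In No NRP + HOPE 2 h it was listed at 0.126 TPM in pig 33 and at 0 in pigs 31 and 34. IL6 was thus above 0 in 3 of 3 hearts stored for 24 h and in 1 of 3 hearts of each other group, and the lowest heart of Group 1 lay above the highest of Group 3. Because it failed the filter on low values (at least 1 TPM in at least 3 hearts), IL6 had no place in the main test. Without that filter, its log2 fold change on the log2(TPM + 1) scale was 0.55 for Group 1 against Group 3 (limma unadjusted p = 0.0219, adjusted p = 0.819), 0.42 for Group 1 against Group 2 (unadjusted p = 0.0628) and -0.13 for Group 3 against Group 2 (unadjusted p = 0.542).

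CSF3 had a wider relative range than any receptor. Its values were 4.29, 31.5 and 4.85 TPM in pigs 27, 28 and 30 of NRP + HOPE 24 h, and 18.3, 3.48 and 0.728 TPM in pigs 24, 25 and 29 of NRP + SCS 2 h. In No NRP + HOPE 2 h it was listed at 0 in pigs 31 and 34 and at 0.817 TPM in pig 33. Every heart stored for 24 h therefore lay above every heart without NRP, the closest pair being pig 27 at 4.29 TPM and pig 33 at 0.817 TPM, while the NRP + SCS 2 h hearts overlapped both other groups. Within each NRP group, a single heart (pig 28 or pig 24) stood well above its companions.

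The fitted log2 fold change of CSF3 was 3.04 for Group 1 against Group 3 (SE 0.78, 95% interval 1.35 to 4.73). This was the smallest p of any of the 7 genes in the 3 comparisons (limma unadjusted p = 0.00179), but it did not pass adjustment over 11782 genes (Benjamini-Hochberg adjusted p = 0.319). An exact two-sided permutation test of the same 6 hearts gave p = 0.1, the smallest that 3 against 3 hearts allow. Leaving out single hearts gave log2 fold changes of 2.19 to 3.50, the lowest without pig 28. Without the filter on low values, limma gave an unadjusted p of 0.00840 (adjusted p = 0.700). For Group 3 against Group 2 the log2 fold change was -2.12 (SE 0.78, limma unadjusted p = 0.0175, adjusted p = 0.580). That value rested in part on pig 24: without it the difference was -1.19 with an unadjusted p of 0.103. For Group 1 against Group 2 the log2 fold change was 0.92 (SE 0.78, limma unadjusted p = 0.263, adjusted p = 0.993), and it ran from 0.068 without pig 28 to 1.85 without pig 24 (unadjusted p = 0.0168 in that fit). These sizes also depend on the pseudocount because 2 hearts were listed at 0: with 0.1 TPM in place of 1 TPM the difference between Groups 1 and 3 became 5.40. The summed neutrophil markers were highest in pig 24 as well (14.4 TPM) but only 3.14 TPM in pig 28, the heart with the most CSF3. They were lowest in pigs 34 (0.127 TPM) and 31 (0.878 TPM), the hearts in which CSF3 was listed at 0. The summed smooth muscle and pericyte markers (5 of 6 analysed, with MYH11 at 0) separated Groups 1 and 3 without overlap on plain TPM. The direction was opposite to that of CSF3 and IL6, with 225 to 412 TPM in Group 1 and 432 to 489 TPM in Group 3. Among these markers only ACTA2 separated the groups by itself (15.8 to 45.7 against 72.0 to 88.1 TPM). TAGLN and PDGFRB overlapped, as did CNN1, with 37.0 to 117 TPM in Group 1 and 31.6 to 80.5 TPM in Group 3. The part of these cells in the values was not tested.

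IL6 and CSF3 were high in the same hearts. Pig 28 held the highest value of both genes and pig 24 the second highest of both, although they belong to different groups. The 3 hearts at 0 TPM of IL6 with CSF3 below 1 TPM were pigs 29, 31 and 34, and pig 25 was the heart with CSF3 above 1 TPM in which IL6 was listed at 0. Across the 9 hearts the Pearson correlation of their log2(TPM + 1) values was 0.90 (n = 9, a description over hearts of 3 groups).

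**Figure D2:**
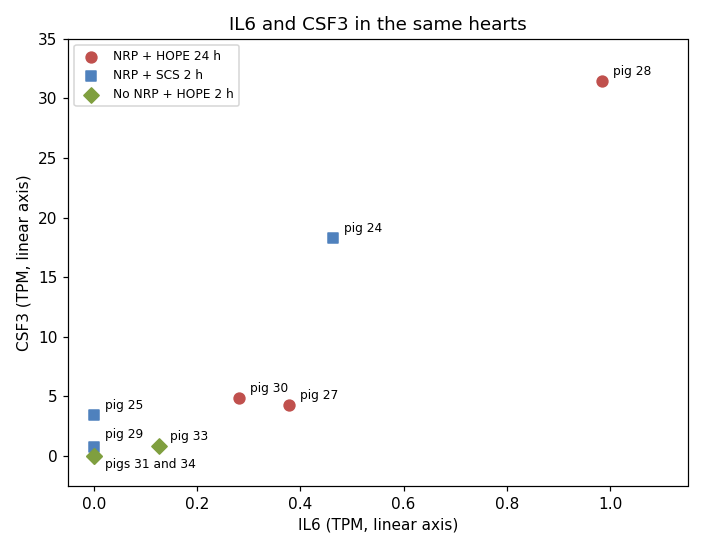
IL6 (x axis, TPM) against CSF3 (y axis, TPM) on linear axes, with 1 point per heart and color and shape by group. Pig 28 of NRP + HOPE 24 h and pig 24 of NRP + SCS 2 h hold the highest values of both genes, while pigs 31 and 34 without NRP are listed at 0 for both and share 1 spot.

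The genes whose log2(TPM + 1) profile was most like each ligand, among 5231 genes with a symbol and a mean of at least 5 TPM, were as follows. For IL6 they were NFKBIA, an inhibitor of NF-kB (r = 0.91, 177 to 391 TPM), the neutrophil chemokine CXCL2 (r = 0.88, 50.1 to 1468 TPM), the Mediator kinase CDK8 (r = 0.86), the nuclear NF-kB cofactor NFKBIZ (r = 0.86) and the transcription factor MSC (r = 0.85). For CSF3 they were the stress-induced sestrin SESN2 (r = 0.89, 2.71 to 29.9 TPM), the sphingomyelin synthase SGMS2 (r = 0.89), FASTKD1 (r = 0.88), the small RNA listed as RF00568 (r = 0.87) and again NFKBIZ (r = 0.87). These are the highest of 5231 correlations per ligand over n = 9 hearts and are given as a description. Those of IL6 rest on values near the floor, below 1 TPM in every heart and listed at 0 in pigs 25, 29, 31 and 34.

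IL6R, the chain that binds IL6, had the largest difference in mean TPM between groups among the 4 receptors. Pigs 27, 28 and 30 of NRP + HOPE 24 h had 32.4, 38.8 and 50.5 TPM, and pigs 31, 33 and 34 of No NRP + HOPE 2 h had 31.3, 48.0 and 51.0 TPM. In NRP + SCS 2 h, pigs 24 and 29 had 86.7 and 79.1 TPM and pig 25 had 49.2 TPM, below the top heart of each HOPE group. Group means were 40.6 ± 9.20, 71.6 ± 19.8 and 43.4 ± 10.6 TPM (SD, n = 3 each) for Groups 1, 2 and 3. The log2 fold change was -0.79 for Group 1 against Group 2 (SE 0.31, limma unadjusted p = 0.0252, adjusted p = 0.943) and -0.70 for Group 3 against Group 2 (SE 0.31, unadjusted p = 0.0431, adjusted p = 0.684). Both HOPE groups are set against the same 3 SCS hearts, so the second value is no independent repeat of the first. Neither unadjusted p was stable to the loss of a heart: the first rose above 0.05 without pig 24, 27, 28 or 29, reaching 0.111 without pig 24, and the second did without pig 24, 29, 31 or 33, reaching 0.170 without pig 31. In bulk tissue, fewer cells that carry a transcript and less of it per cell cannot be told apart.

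The mitochondrially encoded share touches this result. When those 13 genes were left out of the total, IL6R was 72.6 to 85.5 in Group 1, 97.3 to 169 in Group 2 and 69.6 to 94.3 in Group 3 on the rescaled TPM. Neither HOPE group then overlapped the SCS group, narrowly so for Group 3. The share of all genes without overlap rose too, from 9.82% to 15.6% for Group 1 and from 14.7% to 17.2% for Group 3, each against Group 2. The unadjusted p of limma was then 0.00691 for Group 1 against Group 2 (adjusted p = 0.441) and 0.0128 for Group 3 against Group 2 (adjusted p = 0.331). Of all genes, 8.16% and 11.1% had an unadjusted p under 0.05 in these fits, beside 4.97% and 7.22% on plain TPM.

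IL6ST, the shared gp130 chain, showed no separation. It measured 34.3, 68.2 and 70.3 TPM in Group 1, 78.3, 58.2 and 46.3 TPM in Group 2, and 29.3, 40.0 and 74.6 TPM in Group 3, in the order of pigs given above. The hearts of all 3 groups overlapped, with the lowest values in pigs 31 and 27. Its log2 fold change was -0.12 for Group 1 against Group 2 (95% interval -0.94 to 0.71, limma unadjusted p = 0.765) and -0.42 for Group 3 against Group 2 (95% interval -1.24 to 0.41, unadjusted p = 0.296). The sign of the first value turned to 0.028 under median-of-ratios scaling. The ratio of IL6R to IL6ST within a heart was 0.744 ± 0.189 in Group 1, 1.22 ± 0.441 in Group 2 and 0.985 ± 0.269 in Group 3 (SD, n = 3 each), and its ranges overlapped between all groups.

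OSMR and LIFR, the partner chains, were the members in which the hearts without NRP did not overlap those of NRP + SCS 2 h. OSMR was 36.6, 58.2 and 65.2 TPM in pigs 31, 33 and 34 and 86.8, 67.1 and 74.2 TPM in pigs 24, 25 and 29. LIFR was 16.0, 28.7 and 36.3 TPM in the same hearts of Group 3 and 47.4, 41.2 and 39.8 TPM in those of Group 2. The gap between the closest hearts was narrow, 65.2 against 67.1 TPM for OSMR and 36.3 against 39.8 TPM for LIFR. The log2 fold change for Group 3 against Group 2 was -0.54 for OSMR (SE 0.31, limma unadjusted p = 0.102, adjusted p = 0.777) and -0.71 for LIFR (SE 0.37, unadjusted p = 0.0720, adjusted p = 0.732). Without pig 31 these became -0.29 for OSMR (unadjusted p = 0.375) and -0.39 for LIFR (unadjusted p = 0.306), whereas under median-of-ratios scaling they were -0.44 (unadjusted p = 0.0208, adjusted p = 0.324) and -0.62 (unadjusted p = 0.0103, adjusted p = 0.270). Marker sums of other cells also separated these 2 groups on plain TPM. The fibroblast sum was 1020 to 1150 TPM in Group 3 and 669 to 982 TPM in Group 2. Of its markers, DCN and COL3A1 separated the groups, whereas LUM, COL1A2 and PDGFRA overlapped. PDGFRA was 1.60 to 4.46 TPM in Group 3 and 2.44 to 5.08 TPM in Group 2. The erythroid sum (2 of 4 markers) was 222 to 372 TPM in Group 3 and 71.4 to 133 TPM in Group 2. The HOPE perfusate of the authors contained donor packed red cells. The part of these cells in the result was not tested. Hearts stored for 24 h overlapped both other groups, with 39.8, 54.8 and 71.5 TPM of OSMR and 21.1, 33.5 and 52.5 TPM of LIFR in pigs 27, 28 and 30.

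STAT3, which relays the signal of every receptor above, had 53.0, 79.0 and 129.6 TPM in Group 1, 130.9, 142.0 and 98.8 TPM in Group 2, and 62.9, 95.0 and 116.4 TPM in Group 3. The groups overlapped, pig 27 being the lowest and pig 25 the highest heart. The log2 fold change was -0.58 for Group 1 against Group 2 (SE 0.34, limma unadjusted p = 0.115, adjusted p = 0.993) and -0.46 for Group 3 against Group 2 (SE 0.34, unadjusted p = 0.201, adjusted p = 0.842). TPM measures STAT3 transcripts, not its phosphorylated protein. The first value depended on single hearts in both directions: it was -0.91 without pig 30 (unadjusted p = 0.0143) and -0.27 without pig 27 (unadjusted p = 0.431). Its unadjusted limma p was also under 0.05 under median-of-ratios scaling, without mitochondrially encoded genes and with array weights. Of all genes, 8.59%, 8.16% and 15.4% passed in those fits, and the adjusted p of STAT3 was 0.227 or more in every alternative.

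On plain TPM, pigs 27 and 31 held the lowest 2 values of the 9 for each of IL6R, IL6ST, OSMR, LIFR and STAT3. The same 2 hearts were lowest for each of these genes with the mitochondrially encoded genes left out. LIFR was then 47.2 in pig 27 and 35.6 in pig 31, and 56.4 in pig 33, the next lowest. Under median-of-ratios scaling the pattern changed. Pigs 27 and 31 had the lowest factors (0.737 and 0.781). With that scaling the lowest 2 were pigs 30 and 31 for IL6R and OSMR, 33 and 31 for IL6ST and LIFR, and still 27 and 31 for STAT3. The correlation of log2(TPM + 1) over the 9 hearts ran from 0.56 between IL6R and IL6ST to 0.95 between OSMR and LIFR over the 10 pairs of these genes (n = 9 each, a description on plain TPM, whose scaling the genes share). Pigs 27 and 31 had the highest mitochondrially encoded shares (55.3% and 55.0%) and the lowest sums of endothelial markers (247 and 270 TPM, against 377 to 607 TPM in the other 7 hearts). Pig 28 had a similar share (54.7%) but was not among the lowest 2 hearts for any of these genes on plain TPM. The correlation with the mitochondrially encoded share ran from -0.35 for IL6R to -0.73 for STAT3, whereas it was 0.16 for IL6 and 0.058 for CSF3. The part of endothelial content in these levels was not tested.

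The 6 members tested are given here beside all genes, as a description, because they were chosen with earlier results of these data known. With the thresholds of an adjusted p under 0.05 and a log2 fold change beyond 1 in either direction, 0 of 6 passed in each comparison, where 0.0255% (Group 1 against 2), 0.0509% (Group 3 against 2) and 0.0509% (Group 1 against 3) of 11782 genes passed. At an unadjusted limma p under 0.05, 1 of 6 passed for Group 1 against Group 2 (IL6R, lower), where 4.97% of all genes did. For Group 3 against Group 2, 2 of 6 passed (CSF3 and IL6R, both lower) beside 7.22% of all genes. For Group 1 against Group 3, 1 of 6 passed (CSF3, higher) beside 6.01%. Hearts did not overlap between groups for 0 of 6 members in the first comparison (9.82% of all genes), 2 of 6 in the second (LIFR and OSMR, 14.7%) and 1 of 6 in the third (CSF3, 7.48%), with IL6 in addition outside the test.

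In direction, 5 of 6 members had a negative log2 fold change for Group 1 against Group 2, beside 64.1% of all genes, and 6 of 6 for Group 3 against Group 2, beside 57.7%. Over all genes the median log2 fold change was -0.12, -0.074 and -0.035 in the 3 comparisons, and median-of-ratios scaling brought the first to 0.0018. Between Groups 1 and 3 the receptors and STAT3 had log2 fold changes of -0.12 to 0.37 (limma unadjusted p of 0.331 or more), with 95% intervals reaching from -0.86 to 1.16, so that the interval of CSF3 alone excluded 0.

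**Figure D3:**
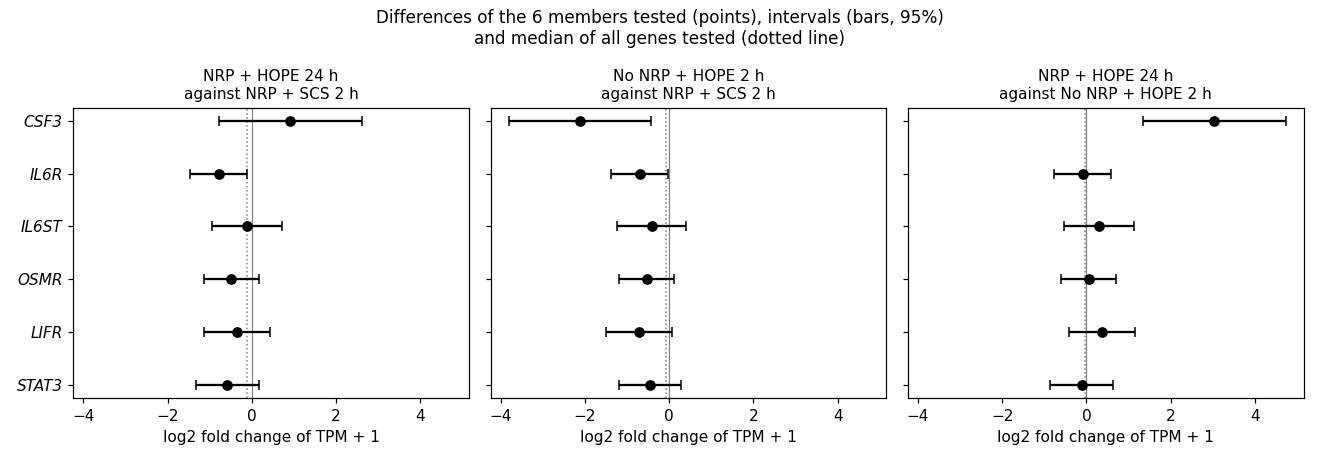
Log2 fold change on the log2(TPM + 1) scale (x axis) of the 6 members that passed the filter, in the 3 comparisons, with points for limma estimates over 9 hearts, bars for 95% intervals and a dotted line for the median of all genes tested. CSF3 has the widest intervals and lies at 3.04 for Group 1 against Group 3, while the intervals of the receptors and STAT3 in that comparison all include 0.

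Around these members, 70 other genes of the pathway were listed and 60 were tested. At an unadjusted limma p under 0.05, 2 were higher and 4 lower for Group 1 against Group 2 (6 of 60, against 4.97% of all genes), 1 higher and 7 lower for Group 3 against Group 2 (13.3%, against 7.22%), and 6 higher and 1 lower for Group 1 against Group 3 (11.7%, against 6.01%). The lists were chosen with earlier results of these data known, so these shares beside those of all genes are a description only. After adjustment over all genes 0 remained in each comparison, the smallest adjusted p being 0.403, 0.498 and 0.263. The p-values that follow are from limma and are not adjusted.

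Among the other gp130 ligands (5 tested), EBI3, a subunit of interleukin-27, was higher in both HOPE groups than in NRP + SCS 2 h. Its log2 fold change was 1.20 in Group 1 (unadjusted p = 0.0142) and 1.12 in Group 3 (unadjusted p = 0.0206), although pig 25 (5.45 TPM) overlapped Group 1. CLCF1, a cardiotrophin-like cytokine, was 4.60 to 7.04 TPM without NRP and 7.15 to 13.9 TPM in Group 2 (log2 fold change -0.81, unadjusted p = 0.0321). OSM, the ligand of OSMR, measured 4.90 to 5.64 TPM in Group 1, above all hearts of Group 2 (2.17 to 3.86 TPM) and Group 3 (2.76 to 3.31 TPM), with an unadjusted p of 0.0666 and 0.0628.

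Of the other receptors and shedding enzymes (5 tested), CNTFR, the receptor chain for ciliary neurotrophic factor, was lower in both HOPE groups than in NRP + SCS 2 h. It was 0.823 to 1.62 TPM in Group 1 and 0.686 to 1.61 TPM in Group 3, below the 1.92 to 4.29 TPM of Group 2 (log2 fold changes -0.88, unadjusted p = 0.0262, and -1.09, unadjusted p = 0.00830). ADAM10, a protease that can release IL6R from the cell surface, was 8.49 to 18.2 TPM in Group 1 and 24.6 to 30.3 TPM in Group 2 (log2 fold change -0.98, unadjusted p = 0.0177), whereas its relative ADAM17 had a log2 fold change of 0.067 (unadjusted p = 0.842). Of the colony stimulating factors and their receptors, only CSF1R and CSF2RB were tested, and 0 of 2 passed in any comparison.

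Among Janus kinases, STATs and adaptors, 0 of 12 passed for Group 1 against Group 2, 1 of 12 for Group 3 against Group 2 (JAK1, log2 fold change -0.61, unadjusted p = 0.0466) and 0 of 12 for Group 1 against Group 3. Of 9 feedback inhibitors, 7 and 8 had a negative log2 fold change against NRP + SCS 2 h in Groups 1 and 3, beside 64.1% and 57.7% of all genes. Those that passed were PTPN6 (log2 fold change -0.92, unadjusted p = 0.0455) in Group 1, and PTPN1 (-0.83, unadjusted p = 0.0115) and PTPN2 (-0.57, unadjusted p = 0.0482) in Group 3, all phosphatases that act on this signaling. PTPN2 was also higher in Group 1 than in Group 3 without overlap (32.9 to 41.1 against 21.1 to 28.8 TPM, log2 fold change 0.62, unadjusted p = 0.0342). SOCS1, an inhibitor of Janus kinases, was 24.1 to 61.2 TPM without NRP and 15.7 to 22.0 TPM after 24 h of HOPE (log2 fold change -0.98 for Group 1 against Group 3, unadjusted p = 0.0189).

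Of 18 STAT3 and gp130 target genes, 1 was higher and 1 lower in Group 1 than in Group 2, and the median log2 fold change of the list was -0.050, beside -0.12 for all genes. The higher gene was MT1A, a metallothionein that binds zinc, with 126 to 198 TPM against 31.7 to 84.9 TPM (log2 fold change 1.54, unadjusted p = 0.00209), and the lower was LRG1 (-0.81, unadjusted p = 0.0389). For Group 3 against Group 2, TNC, the matrix protein tenascin C, was lower (log2 fold change -1.36, unadjusted p = 0.0166), as was IL4R (-0.76, unadjusted p = 0.0433). TNC also gave the smallest p of the pathway for Group 1 against Group 3, with 9.19 to 14.4 TPM against 0.567 to 6.04 TPM (log2 fold change 2.17, unadjusted p = 0.000710). Common immediate targets such as MYC (174 to 312 TPM over all hearts) and JUNB (222 to 414 TPM) did not pass in any comparison.

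Of 9 regulators of IL6 transcription and mRNA tested, 0 passed against NRP + SCS 2 h in either HOPE group, and 2 were higher in Group 1 than in Group 3. NFKB1, an NF-kB subunit, was 10.6 to 25.4 TPM in Group 1, 7.48 to 11.2 TPM in Group 2 and 3.68 to 9.49 TPM in Group 3 (log2 fold change 1.41 for Group 1 against Group 3, unadjusted p = 0.00280). NFKBIZ was 21.6 to 37.0, 16.8 to 24.2 and 9.42 to 17.7 TPM in the same order (log2 fold change 0.86, unadjusted p = 0.0213). For both genes the hearts of Groups 1 and 3 did not overlap (beside 7.48% of all genes), the order of groups that CSF3 also showed. NFKBIZ was already named above for its likeness to CSF3. Of the 9 regulators, 6 had a positive and 3 a negative log2 fold change for Group 1 against Group 3. The negative ones were RELA, ARID5A and ATF3, with means of 32.2, 44.4 and 105 TPM in Group 1 and 34.5, 65.8 and 154 TPM in Group 3.

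**Figure D4:**
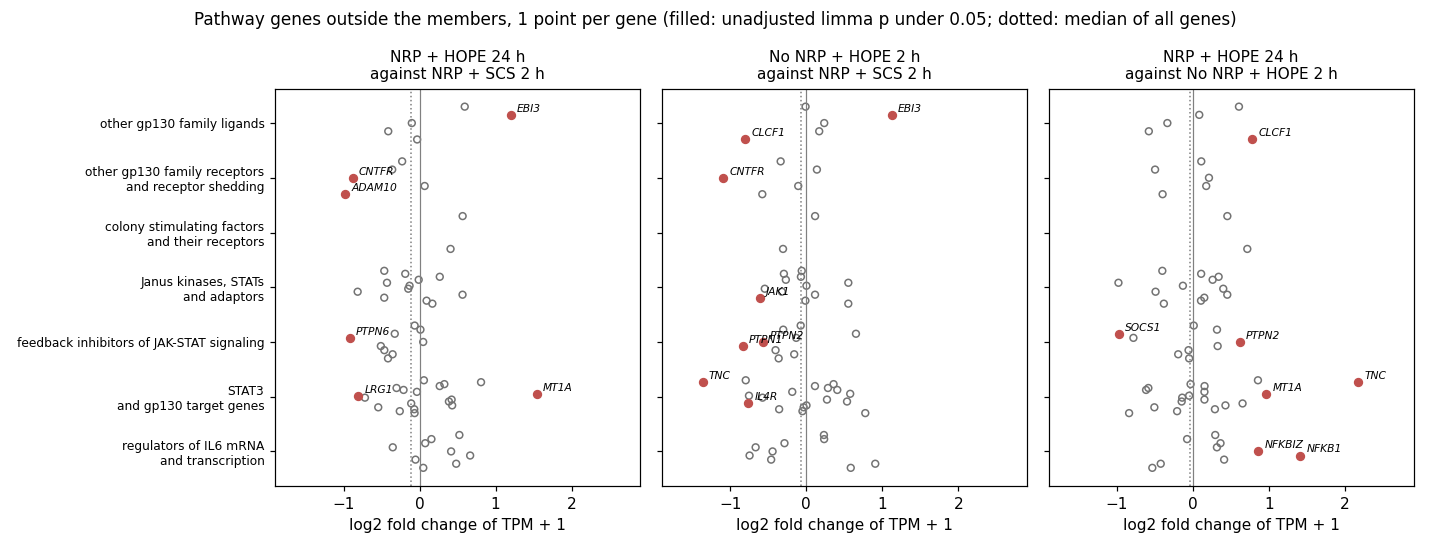
Log2 fold change on the log2(TPM + 1) scale (x axis) of the 60 pathway genes tested outside the members, 1 point per gene, in rows by list and panels by comparison, with filled and named points at an unadjusted limma p under 0.05. Most points lie within 1 of 0, and TNC at 2.17 for Group 1 against Group 3 lies farthest out.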

How the data were processed

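RNA from apex biopsies was selected with oligo(dT), sequenced in paired ends and processed by the authors with bcl2fastq 2.17, Trimmomatic 0.36, STAR 2.5.2b and featureCounts of Subread 1.5.2, per the submitters' processing notes. The authors deposited TPM values with 4 decimals that total 1000000 per heart. The genome build and gene lengths are not given in the sources used here. ERCC RNA was added, but 0 spike-in rows are listed. Another 9 columns could not be tied to a labeled sample and were not used. The 9 hearts come from separate pigs and were grouped by pig number.

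The authors used DESeq2 on counts. Because TPM are not counts, log2(TPM + 1) was fitted here with limma 3.58.1 in R 4.3.3 (eBayes with trend, 1 mean per group, all 9 hearts, two-sided, Benjamini-Hochberg adjustment). A filter kept the 11782 genes that reached 1 TPM in 3 or more hearts. A gene was called when its adjusted p was under 0.05 and its log2 fold change beyond 1 in either direction. Fold changes on this scale understate those of low genes. Group 1 against Group 3 is not a primary comparison of the study. Exact permutation tests used scipy 1.17.1 in Python 3.11.15.

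All members were named. From each pathway list, written from general knowledge, genes with an unadjusted p under 0.05 and the largest other fold changes could be named, and OSM, ADAM17, CSF1R, CSF2RB, MYC and JUNB were added after their values were seen. Members and lists were chosen with earlier results of these data known. Symbols came from the table, and for the lists 754 of 12006 rows without one were given a symbol from an Ensembl-to-symbol table. The alternatives were a pseudocount of 0.1 TPM, no filter on low values, a mean of at least 5 TPM, median-of-ratios scaling, leaving out the 13 mitochondrially encoded genes, only the 6 hearts compared, no trend, array weights (statmod 1.5.0) and leaving out each heart. Counts of non-overlapping members under scalings and without single hearts and their shares of all genes were added after seeing the data.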

Additional observations from a re-analysis of the deposited data

How the results depend on the processing

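No member was called at the adjusted threshold under any alternative run, and CSF3 kept the direction of its fold changes in all of them. The number of genes called for Group 1 against Group 2 was 3 and became 0 with a pseudocount of 0.1 TPM, 1 without the filter, 6 at a mean of at least 5 TPM, 13 with only the 6 hearts and 60 with array weights (0 to 12 without single hearts). For Group 3 against Group 2 it was 6 and became 1 without the filter, 19 under median-of-ratios scaling, 20 without mitochondrially encoded genes, 3 with only the 6 hearts and 94 with array weights (1 to 13 without single hearts). For Group 1 against Group 3 it was 6 and became 3 with the lower pseudocount, 3 under median-of-ratios scaling, 2 without mitochondrially encoded genes and 14 with array weights (0 to 16 without single hearts). Members at an unadjusted p under 0.05 for Group 1 against Group 2 numbered 1, then 2 under median-of-ratios scaling (8.59% of all genes), 3 without mitochondrially encoded genes (8.16%), 3 with array weights (15.4%) and 0 to 3 without single hearts (0 without pig 27, 28 or 29, beside 5.53%, 3.21% and 3.96% of all genes, and 3 without pig 30, beside 10.7%). For Group 3 against Group 2 they numbered 2, then 4 under median-of-ratios scaling (12.4%), 4 without mitochondrially encoded genes (11.1%), 1 without trend (6.99%) and 0 to 3 without single hearts (0 without pig 24, beside 4.12%, and 3 without pig 34, beside 7.02%). For Group 1 against Group 3 they numbered 1, then 2 without the filter, which admits IL6 (5.45%). They stayed at 1 under median-of-ratios scaling (11.7%), without mitochondrially encoded genes (9.12%), with array weights (15.9%) and whichever heart was left out (4.12% to 9.49%). Members without overlap for Group 1 against Group 2 numbered 0, then 2 (OSMR and IL6R, lower) under median-of-ratios scaling (14.7% of all genes) and without mitochondrially encoded genes (15.6%), and 0 to 4 without single hearts (4 without pig 30, beside 37.3% of all genes, and 13.5% to 20.8% without the others). For Group 3 against Group 2 they numbered 2, then 3 under both scalings (18.0% and 17.2%) and 2 to 5 without single hearts (5 without pig 34, beside 28.2%, and 20.4% to 27.6% without the others). For Group 1 against Group 3 the member tested was CSF3 throughout, under both scalings (16.3% and 12.5%) and without single hearts (10.7% to 24.8%). Small differences turned sign: for Group 1 against Group 2, IL6ST was 0.028 under median-of-ratios scaling and -0.29 to 0.21 without single hearts (above 0 without pig 27 or 24). For Group 1 against Group 3, leaving out single hearts gave -0.30 to 0.058 for IL6R and -0.45 to 0.19 for STAT3 (both above 0 without pig 27 or 34) and -0.19 to 0.27 for OSMR (below 0 without pig 30 or 31), and array weights gave -0.079 for OSMR. The causes were not tested. The adjusted p of CSF3 for Group 1 against Group 3 ranged from 0.0646 (only the 6 hearts) to 0.953 (without pig 28). No paired analysis was possible because pigs are not shared between groups. With unknown depth, neither counting intervals nor detection limits can be given for IL6.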

Other observations

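Several genes of the pathway lists peaked in 1 heart without NRP, pig 34, a pattern chosen after the values were seen. SOCS1 was 61.2 TPM there and 15.7 to 34.0 TPM in the other 8 hearts, STAT2 was 49.8 TPM, PIM1 62.2 TPM and IRF1 263 TPM, each the highest of the 9 hearts. IL6 and CSF3 were listed at 0 in the same heart. CSF2, which encodes another colony stimulating factor and failed the filter on low values, was highest in pig 28 (2.91 TPM), the heart with the highest IL6 and CSF3, and was listed at 0 in pig 24, the second highest for both.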
